A study of Mus musculus with 6 samples.

Results

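The apolipoprotein genes described here are 10 of 34461 genes counted in mouse ovaries, *Apoa1*, *Apoc3*, *Apoa4*, *Apoa5*, *Apoa2*, *Apoe*, *Apoc1*, *Apoc2*, *Apob* and *Apod*. They were taken by gene name, and the set was chosen on the difference between Trim28 cKO and control libraries in the same counts, so their differences between genotypes are given as descriptions without a test. The study compared whole ovaries of 7-month-old mice in which *Trim28*, a chromatin scaffold and SUMO ligase gene, was deleted in somatic cells of the gonad, with ovaries of control mice. It asked what happens to ovarian identity without TRIM28. Trim28 cKO mice were *Trim28* flox/flox; *Nr5a1:Cre*, and control mice either *Trim28* flox/flox without the Cre or *Trim28* flox/+; *Nr5a1:Cre*, so both genotypes carried a floxed allele and some controls could also carry the Cre. The labels do not say which control each library came from. The mice had a mixed 129SV/C57BL6/J background. The *Nr5a1* promoter drives the Cre in gonadal somatic cells and in some other steroidogenic and endocrine tissues, and germ cells, blood-derived cells and vessels keep the gene. Each genotype had 3 libraries, each from 600 ng of RNA, and the labels name 3 mice per genotype. Libraries were treated as separate mice, although no label ties a library to a mouse.

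Total counts ranged from 32441021 to 48508461 in Trim28 cKO libraries and from 23615580 to 45033787 in control libraries, and control replicate 2 was the shallowest. *Trim28* itself was at 48.8, 55.6 and 71.2 CPM (library-scaled counts, after TMM normalization) in Trim28 cKO libraries, against 155, 178 and 155 CPM in control libraries, as the labels say. The first principal component carried 71.7% of the variance and separated the genotypes. Of all genes, 18959 passed a filter on low counts and were tested with edgeR's quasi-likelihood test with Benjamini-Hochberg adjustment, and the words rose and fell mark genes whose adjusted p did not exceed 0.05. By this rule 20.2% of tested genes rose in Trim28 cKO ovaries, 16.8% fell, and the libraries of the genotypes did not overlap for 52.8%. The median log2 fold change of all tested genes was 0.00. A gene could pass the filter through a single genotype, which builds a difference into its passing.

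Apolipoproteins are the protein part of lipoproteins, the particles that carry cholesterol, phospholipid and triglyceride between cells. ApoA-I and apoA-IV are made mainly by liver and intestine and sit on high-density particles and chylomicrons, apoB is the structural protein of chylomicrons and very low-density particles, and the small apoC proteins and apoA-V set how fast lipoprotein lipase empties the particles. ApoE is also made outside the liver, by macrophages, astrocytes and steroidogenic cells, and is a ligand of lipoprotein receptors on the cell surface. ApoD is a lipocalin that binds small lipids and shares no ancestry with the others. In the ovary, follicles and corpora lutea take up lipoprotein cholesterol for steroid synthesis.

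The members lie at 5 loci of mm10. *Apoa1* (chromosome 9, 46228580 to 46230466, plus strand), *Apoc3* (46232933 to 46235636, minus strand), *Apoa4* (46240696 to 46243459, plus strand) and *Apoa5* (46268633 to 46271919, plus strand) form a cluster, with 2.47 kb between *Apoa1* and *Apoc3*, 5.06 kb between *Apoc3* and *Apoa4* and 25.2 kb between *Apoa4* and *Apoa5*. *Apoe* (chromosome 7, 19696109 to 19699188), *Apoc1* (19689481 to 19692660) and *Apoc2* (19671579 to 19677941) are all on the minus strand of another cluster, with 3.45 kb between *Apoc1* and *Apoe*. *Apoa2* (chromosome 1, 171225054 to 171226379), *Apob* (chromosome 12, 7977648 to 8016835) and *Apod* (chromosome 16, 31296192 to 31314808) stand alone. The longest annotated coding sequences predict proteins of 264 residues for *Apoa1*, 395 for *Apoa4*, 137 for *Apoc3*, 368 for *Apoa5*, 311 for *Apoe*, 88 for *Apoc1*, 97 for *Apoc2*, 102 for *Apoa2*, 189 for *Apod* and 4505 for *Apob*. The coding transcript had 3 to 6 exons in 9 members and 29 exons in *Apob*.

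Promoter windows are shown for genes with levels that differed in opposite directions, *Apoa1* (chr9:46228380-46228679, plus strand) and *Apoa4* (chr9:46240594-46240893, plus strand) against *Apoe* (chr7:19699139-19699438, minus strand) and *Apod* (chr16:31314759-31315058, minus strand). They are RefSeq windows of GRCm38.p6, the mm10 build, from 250 bases before to 50 bases after a start site, and 8 of the 10 members had one. *Apoc1* and *Apoc3* were not among them. Letters in capitals are matches to any of 5 short motifs searched on both strands, which were TATAAA of core promoters, AGGTCA of nuclear receptors, AGATAA of zinc finger factors such as GATA4, GTAAACA of forkhead factors and ACAAAG of SOX factors. Only the SOX letters were found in these 4 windows. RefSeq has 3 windows for *Apoe*, and the one shown has its start site at the gene bound of the deposited table. Of the other 2, one held TATAAA on both strands and the other GTAAACA 5 bases before its start site.
*Apoa1*: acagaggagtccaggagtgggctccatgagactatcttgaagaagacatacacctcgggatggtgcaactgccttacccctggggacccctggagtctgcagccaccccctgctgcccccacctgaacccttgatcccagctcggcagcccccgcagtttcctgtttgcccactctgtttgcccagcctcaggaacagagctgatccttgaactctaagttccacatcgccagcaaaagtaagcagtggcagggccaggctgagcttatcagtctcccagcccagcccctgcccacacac
*Apoa4*: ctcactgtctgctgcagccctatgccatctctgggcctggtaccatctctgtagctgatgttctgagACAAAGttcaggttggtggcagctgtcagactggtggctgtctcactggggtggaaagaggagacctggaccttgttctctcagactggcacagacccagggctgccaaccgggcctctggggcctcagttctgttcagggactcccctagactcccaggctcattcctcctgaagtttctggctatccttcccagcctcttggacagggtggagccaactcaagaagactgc
*Apoe*: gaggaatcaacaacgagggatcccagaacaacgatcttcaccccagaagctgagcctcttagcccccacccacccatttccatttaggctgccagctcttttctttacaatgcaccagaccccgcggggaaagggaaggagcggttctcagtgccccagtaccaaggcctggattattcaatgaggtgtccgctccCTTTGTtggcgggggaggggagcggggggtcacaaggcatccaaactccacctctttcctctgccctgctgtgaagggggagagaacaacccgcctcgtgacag
*Apod*: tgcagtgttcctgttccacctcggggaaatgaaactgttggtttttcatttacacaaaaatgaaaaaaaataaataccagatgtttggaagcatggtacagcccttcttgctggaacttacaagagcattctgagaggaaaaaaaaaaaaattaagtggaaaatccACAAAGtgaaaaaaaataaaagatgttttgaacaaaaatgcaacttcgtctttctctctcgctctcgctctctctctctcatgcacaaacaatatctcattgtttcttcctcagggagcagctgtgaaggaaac

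The windows shown for *Apoa4*, *Apoe* and *Apod* each held 1 match to ACAAAG or its reverse complement, 183, 54 and 84 bases before the start site, and *Apoa1* held no match to any of the 5 motifs. The SOX letters occurred in 18.7% of all 32851 windows, the core promoter letters in 13.6%, those of nuclear receptors in 16.3%, those of zinc finger factors in 11.2% and the forkhead letters in 3.65%. The windows of *Apoa1*, *Apoa4*, *Apoe* and *Apod* held 4, 1, 10 and 4 CpG dinucleotides, where the median of all windows was 7. The *Apoa1* and *Apoa4* start sites used by RefSeq lie 50 and 148 bases inside the gene bounds of the deposited table. A match is a run of letters and was not tested as a binding site.

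Among the members, *Apoe*, *Apoc1* and *Apod* were higher and *Apoa1*, *Apoa4* and *Apoc3* lower in Trim28 cKO ovaries. These 6 of the 10 passed the filter on low counts, and 3 passed the test upwards and 3 downwards, where 20.2% and 16.8% of all tested genes did. In all 6 the libraries of the genotypes did not overlap, as in 52.8% of all tested genes. Since the members were chosen on this contrast, nothing is read from these shares. *Apoa5*, *Apoa2*, *Apoc2* and *Apob* had too few counts to be tested. *Apod* and *Apoc3* reached the filter only through the genotype in which they were higher, so a difference was built into their passing it. In whole ovaries, fewer cells of a type and less RNA per cell cannot be told apart.

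**Figure D1:**
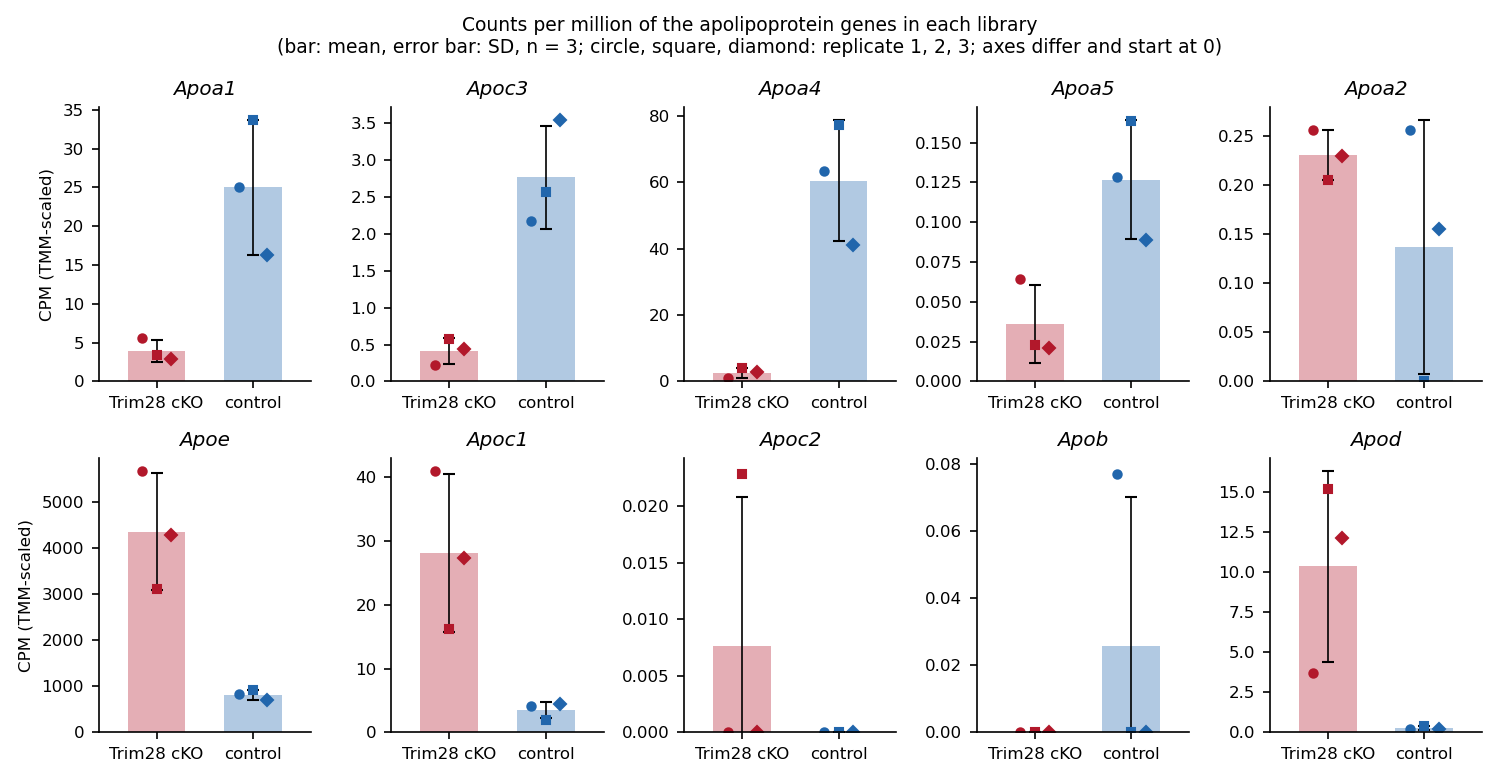
TMM-scaled CPM of the 10 members in each of the 3 Trim28 cKO and 3 control libraries, on a linear axis of its own for each gene. Bars are means and whiskers are SD, drawn only above 0. *Apoe* reached 5672 CPM in Trim28 cKO replicate 1, and *Apoc2* and *Apob* had counts in 1 library each.

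*Apoa4* encodes apoA-IV, a lipid-binding protein of chylomicrons and high-density particles. It had 34, 174 and 135 counts in Trim28 cKO libraries, against 2471, 1889 and 1851 counts in control libraries. The groups lay far apart in every library. In CPM this was 2.63 ± 1.45 in Trim28 cKO and 60.5 ± 18.2 in control ovaries (SD, n = 3 each), a log2 fold change of -4.50 with a standard error of 0.47, and Trim28 cKO replicate 1 was the lowest of all. *Gm10680*, annotated as antisense, and *Gm47528*, an unclassified transcript, overlap *Apoa4* on the other strand. The kit marked the strand, but the sources read here do not state how htseq-count used it. Reads of the 3 genes may therefore not be fully separated, and the tests of both transcripts may restate the counts of *Apoa4*. *Gm10680* fell to 0.289 ± 0.0924 CPM in Trim28 cKO ovaries, against 4.96 ± 1.22 CPM in control ovaries (log2 fold change -4.07, SE 0.35, adjusted p = 0.000402 by edgeR). *Gm47528* fell to 1.61 ± 1.09 CPM, against 18.4 ± 2.02 CPM in control ovaries (log2 fold change -3.50, SE 0.46, adjusted p = 0.00151 by edgeR).

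*Apoa1* encodes the main protein of high-density lipoprotein. It had 173, 148 and 136 counts in Trim28 cKO libraries, against 976, 825 and 738 counts in control libraries, so the groups lay well apart and the libraries within each group close together. On the CPM scale the spread of the controls was wider, at 3.92 ± 1.43 CPM in Trim28 cKO and 25.0 ± 8.67 CPM in control ovaries, with control replicate 2 highest at 33.7 CPM and control replicate 3 lowest at 16.3 CPM. The log2 fold change was -2.68 with a standard error of 0.35. *Apoc3* encodes apoC-III, which slows the breakdown of triglyceride-rich particles. It lies between *Apoa1* and *Apoa4* on the other strand and had 7, 25 and 21 counts in Trim28 cKO libraries, against 85, 63 and 160 counts in control libraries. Its mean was 0.411 ± 0.175 CPM in Trim28 cKO and 2.76 ± 0.701 CPM in control ovaries (log2 fold change -2.72, SE 0.40), and Trim28 cKO replicate 1 was lowest for this gene as for *Apoa4*. *Apoa5*, which encodes an activator of lipoprotein lipase, had 2, 1 and 1 counts in Trim28 cKO libraries, against 5, 4 and 4 counts in control libraries. These few counts did not overlap between the genotypes, and no fold change was fitted.

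*Apoe* was the most abundant member by far. It had 176922, 136693 and 204702 counts in Trim28 cKO libraries, against 32296, 22406 and 31599 counts in control libraries. It stood at 5672, 3121 and 4282 CPM in Trim28 cKO libraries, against 828, 915 and 699 CPM in control libraries. Every Trim28 cKO library was above every control library, and replicates 1 and 2 of Trim28 cKO were the farthest apart. The mean was 4358 ± 1277 CPM in Trim28 cKO and 814 ± 108 CPM in control ovaries, a log2 fold change of 2.42 with a standard error of 0.25. By signal per kb of transcript, *Apoe* ranked 4, 5 and 3 among 34461 genes in Trim28 cKO libraries, against ranks of 60, 44 and 75 in control libraries.

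*Apoc1*, the neighbour of *Apoe*, encodes a small protein that hinders receptor binding and lipolysis. It had 1276, 709 and 1304 counts in Trim28 cKO libraries, against 159, 49 and 201 counts in control libraries. Replicate 2 was the lowest library within both genotypes. Its mean was 28.1 ± 12.4 CPM in Trim28 cKO and 3.51 ± 1.32 CPM in control ovaries, a log2 fold change of 2.99 with a standard error of 0.42. *Apoc2*, which encodes the cofactor of lipoprotein lipase, had 1 count in 1 Trim28 cKO library and 0 counts in the control libraries. This leaves no fold change to give, as both groups lie under 3 counts, the number that a count of 0 allows.

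*Apod* had the widest difference of the members. It had 116, 666 and 582 counts in Trim28 cKO libraries, against 8, 10 and 9 counts in control libraries. It stood at 3.72, 15.2 and 12.2 CPM in Trim28 cKO libraries, against 0.205, 0.408 and 0.199 CPM in control libraries. Trim28 cKO replicate 1 was apart from the other 2 and was still above every control library. The log2 fold change was 5.31 with a standard error of 0.64. *Apoa2*, which encodes another protein of high-density particles, had 8, 9 and 11 counts in Trim28 cKO libraries, against 10, 0 and 7 counts in control libraries, and the groups overlapped. *Apob* had 0 counts in the Trim28 cKO libraries, against 3 counts in control replicate 1 and 0 in the other control libraries. No fold is given for either gene.

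Levels of different genes can be compared only per length, and the authors' normalized signal per kb of median transcript length was used for this. In Trim28 cKO ovaries the order of mean signal was *Apoe* (201000 ± 59890), *Apoc1* (2750 ± 1222), *Apod* (556 ± 317), *Apoa1* (181 ± 66.4), *Apoa4* (54.4 ± 29.8), *Apoc3* (34.1 ± 14.3), *Apoa2* (18.1 ± 2.10) and *Apoa5* (2.22 ± 1.51). In control ovaries the order was *Apoe* (37240 ± 5203), *Apoa4* (1246 ± 384), *Apoa1* (1143 ± 403), *Apoc1* (340 ± 126), *Apoc3* (228 ± 56.4), *Apod* (14.5 ± 6.45), *Apoa2* (10.6 ± 10.0) and *Apoa5* (7.76 ± 2.34). In Trim28 cKO ovaries the neighbours *Apoa4* and *Apoc3* differed by less than the larger of their SDs. In control ovaries this held for *Apoa4* and *Apoa1*, for *Apoc1* and *Apoc3*, and for *Apod*, *Apoa2* and *Apoa5*, each set beside the next in the order.

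**Figure D2:**
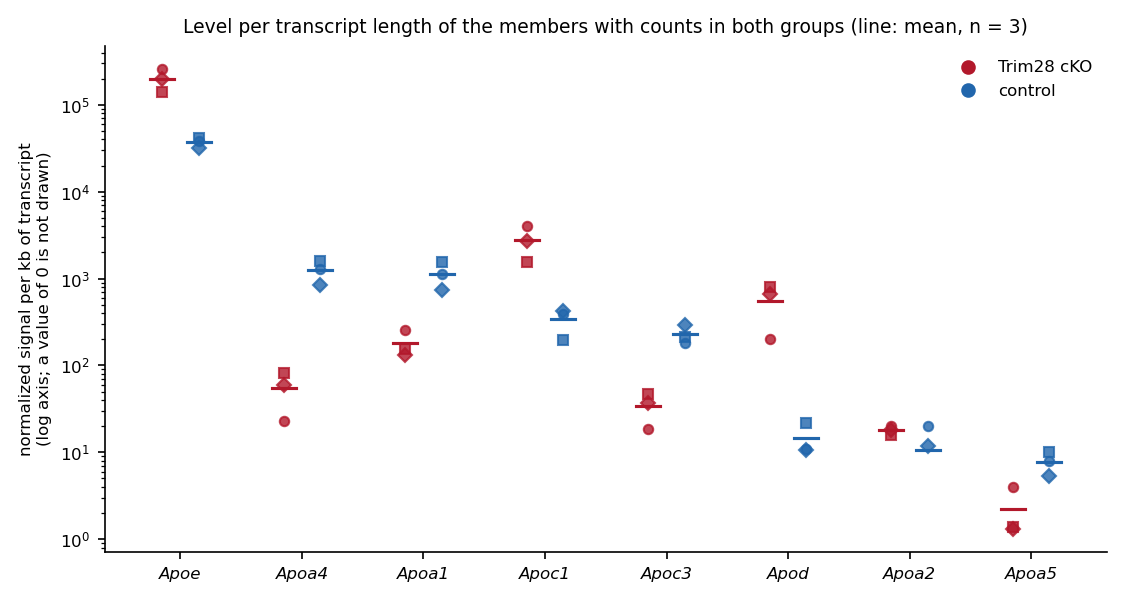
Normalized signal per kb of transcript in each library, on a log axis, for the 8 members with counts in both genotypes, in the order of their control means. Lines are means of 3 libraries. *Apoe* lies above every other member in both genotypes, and *Apoc1* stands above *Apoa1* and *Apoa4* in every Trim28 cKO library and below them in every control library. *Apod* does so too, except that it lies below *Apoa1* in Trim28 cKO replicate 1 (201 against 256 per kb).

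Ratios between members of a cluster overlapped between the genotypes for *Apoc3* to *Apoa1* and *Apoc1* to *Apoe*, but not for *Apoa4* to *Apoa1*. The ratio of *Apoa4* to *Apoa1* in signal per kb was 0.0886, 0.530 and 0.448 in Trim28 cKO libraries, against 1.14, 1.03 and 1.13 in control libraries. The controls were nearly equal, and the 3 Trim28 cKO libraries were all lower and differed among themselves. The ratio of *Apoc3* to *Apoa1* overlapped between the genotypes, at 0.219 ± 0.127 in Trim28 cKO and 0.229 ± 0.141 in control ovaries. At the other cluster, the ratio of *Apoc1* to *Apoe* was 0.0133 ± 0.00216 in Trim28 cKO and 0.00952 ± 0.00449 in control ovaries and also overlapped. The summed signal of the 4 members on chromosome 9 was 271 ± 38.4 per kb in Trim28 cKO and 2625 ± 748 per kb in control ovaries. Over all 10 members it was 204600 ± 60810 in Trim28 cKO and 40230 ± 5837 in control ovaries, nearly all of it *Apoe*.

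Neighbouring genes within 200 kb were not used to choose the members and were tested. Both transcripts that overlap *Apoa4* may hold some of its reads, so their tests may not be independent of that choice. Around *Apoa1* to *Apoa5*, 6 of 8 neighbours were tested, 5 fell and 1 rose, where 16.8% and 20.2% of all tested genes did. The 5 include both transcripts that overlap *Apoa4*. *Sik3*, a kinase gene 4.39 kb from *Apoa1*, fell to 95.6 ± 4.76 CPM in Trim28 cKO ovaries, against 142 ± 7.49 CPM in control ovaries (log2 fold change -0.58, SE 0.09, adjusted p = 0.00259 by edgeR). *Zpr1*, a zinc finger gene 1.15 kb beyond *Apoa5*, fell to 59.0 ± 2.98 CPM in Trim28 cKO ovaries, against 122 ± 30.8 CPM in control ovaries (log2 fold change -1.05, SE 0.19, adjusted p = 0.00523). *Bud13*, named here after its values were seen, was the fifth that fell (log2 fold change -0.36). The 1 that rose, *4930448E22Rik*, was at 0.733 ± 0.112 CPM in Trim28 cKO and 0.350 ± 0.0514 CPM in control ovaries (log2 fold change 1.07, adjusted p = 0.0348) and lost its call when any 1 library was left out (adjusted p from 0.0351 to 0.119 over the alternatives).

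Around *Apoe* to *Apoc2*, 21 of 27 neighbours were tested, 4 rose and 2 fell, where 20.2% and 16.8% of all tested genes did. Nothing about the locus is read from these counts. The genes that flank the cluster, *Tomm40*, a gene of the mitochondrial import pore 2.12 kb from *Apoe*, and *Clptm1*, 6.55 kb beyond *Apoc2*, did not pass. *Tomm40* was at 54.7 ± 7.61 CPM in Trim28 cKO and 56.7 ± 5.07 CPM in control ovaries (log2 fold change -0.05, SE 0.13). *Clptm1* was at 181 ± 29.6 CPM in Trim28 cKO and 171 ± 5.38 CPM in control ovaries (log2 fold change 0.09, SE 0.13). *Apoc4*, between *Apoc2* and *Apoc1*, was at 1.27 ± 0.354 CPM in Trim28 cKO and 0.671 ± 0.357 CPM in control ovaries and did not pass either (log2 fold change 0.94, SE 0.47). The nearest gene that rose was *Nectin2*, a cell adhesion gene 17.5 kb from the cluster, at 279 ± 77.2 CPM in Trim28 cKO and 115 ± 11.1 CPM in control ovaries (log2 fold change 1.28, SE 0.20, adjusted p = 0.00325 by edgeR). *Relb*, an NF-kB subunit gene 42.1 kb away, rose as well (log2 fold change 1.09, SE 0.15). These were named after their values were seen. Farther out, *Ceacam16* (log2 fold change 2.93, SE 0.51) and *Bcl3*, a co-regulator of NF-kB (log2 fold change 1.32, SE 0.14), rose and the zinc finger gene *Zfp296* fell (log2 fold change -2.07, SE 0.39).

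**Figure D3:**
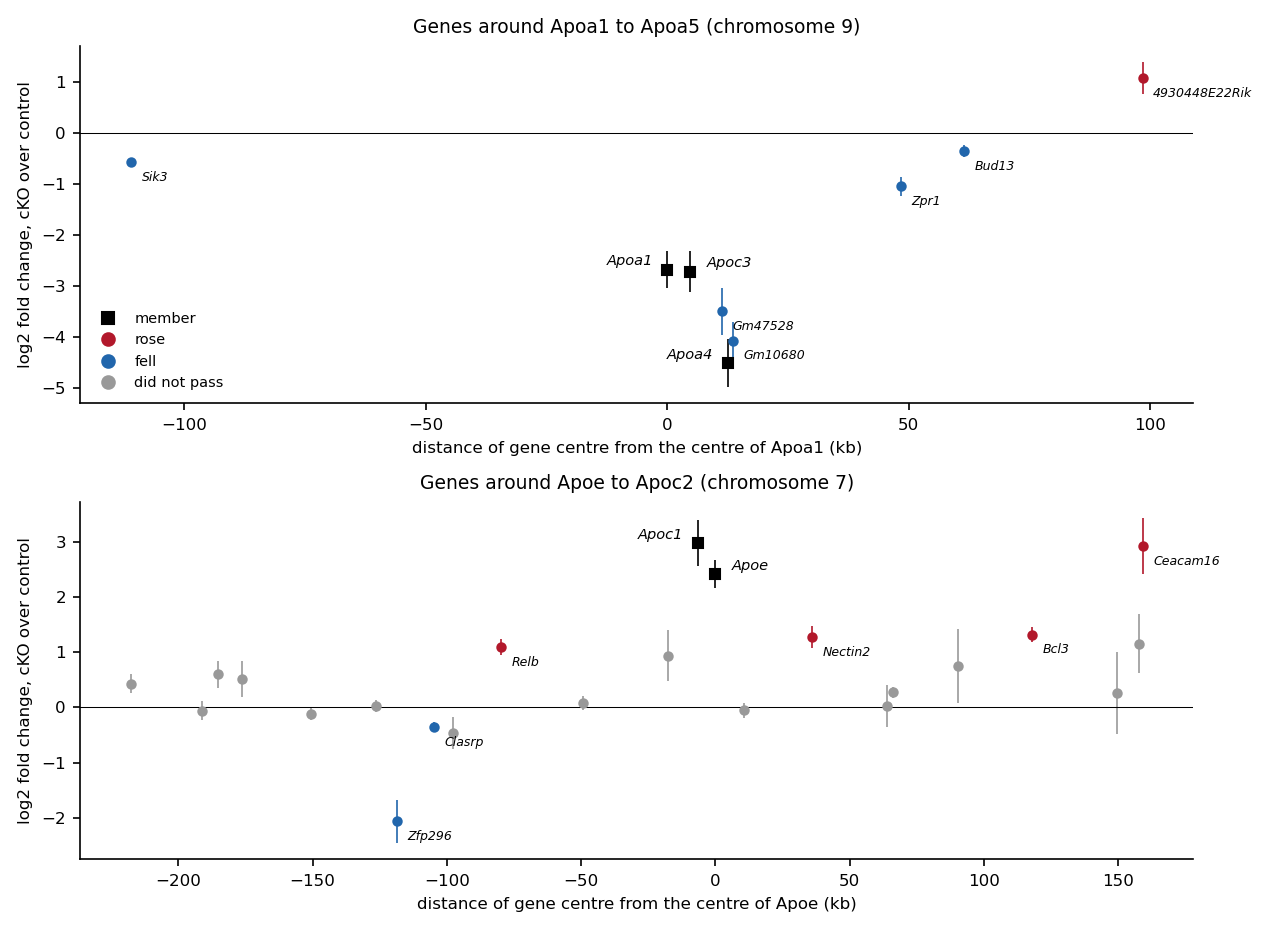
Log2 fold change, Trim28 cKO over control, with its standard error, of the tested genes around the clusters of chromosome 9 and chromosome 7, against the distance of the gene centre in kb from the centre of *Apoa1* or *Apoe*. Squares are members. *Tomm40* and *Clptm1*, which flank the cluster of *Apoe*, lie near 0 and *Nectin2* at 1.28, and *Apoa1*, *Apoc3*, *Apoa4* and both transcripts that overlap *Apoa4* lie between -2.68 and -4.50.

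*Apoa2* lies among 29 neighbours, of which 26 were tested, 7 rose and 1 fell, where 20.2% and 16.8% of all tested genes did. Those that rose include the Fc receptor genes *Fcgr4* (log2 fold change 3.10, SE 0.54), *Fcer1g*, 3.19 kb away (log2 fold change 2.89, SE 0.24), and *Fcgr3* (log2 fold change 2.81, SE 0.28), which are expressed by myeloid cells. *Tomm40l*, on the other side of *Apoa2*, did not pass (log2 fold change 0.27, SE 0.13). Of the 2 tested neighbours of *Apob*, *Ldah* had a log2 fold change of -0.01 and *Gm9144* of 0.48 (SE 0.10 and 0.56). Next to *Apod*, *Ppp1r2*, an inhibitor of protein phosphatase, rose (log2 fold change 0.46, SE 0.08, adjusted p = 0.00483), and *Bdh1* did not pass (log2 fold change 0.16, SE 0.37).

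Of 26 other apolipoprotein genes listed for comparison, 25 were in the table and 17 were tested. Of these 7 rose, 1 fell and 9 did not pass, with a median log2 fold change of 1.12 beside 0.00 over all tested genes. Of all tested genes 20.2% rose and 16.8% fell. This list, and the gene and marker lists below, were chosen with earlier results known, so nothing is read from their counts alone. *Clu* encodes clusterin, or apolipoprotein J, a secreted chaperone that is abundant in Sertoli cells. It stood at 6632, 5862 and 4068 CPM in Trim28 cKO libraries, against 1047, 1221 and 779 CPM in control libraries, without overlap (log2 fold change 2.44, SE 0.26, adjusted p = 0.000710). It ranked 1, 1 and 4 by signal per kb in Trim28 cKO libraries, against 41, 30 and 60 in control libraries, so *Clu* and *Apoe* were among the 5 highest genes of every Trim28 cKO library. Their ratio in signal per kb, *Clu* over *Apoe*, overlapped between the genotypes, at 1.34 ± 0.489 in Trim28 cKO and 1.25 ± 0.114 in control ovaries.

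The *Apol* genes encode apolipoprotein L, a family of mostly intracellular proteins of immune cells and vessels. *Apol11b* rose to 4.43 ± 1.27 CPM in Trim28 cKO ovaries, against 0.153 ± 0.0630 CPM in control ovaries (log2 fold change 4.76, SE 0.42). *Apol11a* rose to 1.06 ± 0.746 CPM, against 0.0567 ± 0.0492 CPM in control ovaries (log2 fold change 4.20, SE 0.95), and *Apol7a* to 0.688 ± 0.187 CPM, against 0.0443 ± 0.0206 CPM (log2 fold change 3.82, SE 0.50). The other 3 that rose, *Apol9a*, *Apol9b* and *Apol7e*, named here after their values were seen, had log2 fold changes of 1.51, 1.34 and 1.18. Mouse *Apol* genes are close copies of each other, *Apol9a* and *Apol9b* above all, so the split of reads between them is uncertain. The count of 7 dropped to 4 without Trim28 cKO replicate 3, without control replicate 1 or without control replicate 2. *Saa2*, an acute-phase protein of high-density particles, fell to 0, 0.251 and 0.0418 CPM in Trim28 cKO libraries, against 6.51, 6.61 and 6.90 CPM in control libraries (log2 fold change -5.97, SE 0.76, adjusted p = 0.00131). It has a near-identical copy, *Saa1*, so its reads too are uncertain. *Apol11b*, *Apol11a*, *Apol7a* and *Saa2* reached the filter on low counts only through the genotype in which they were higher. A difference was thus built into their passing it, and into the counts of this list.

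**Figure D4:**
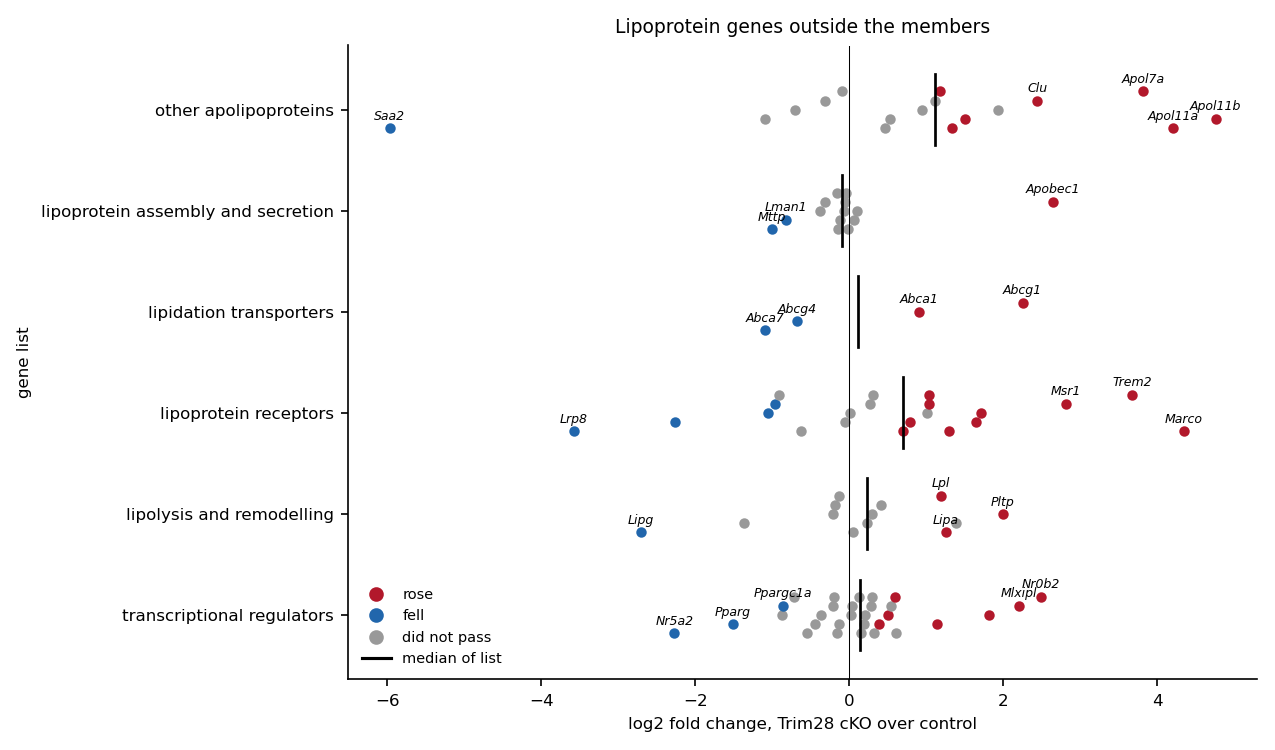
Log2 fold change, Trim28 cKO over control, of each tested gene in 6 lists of lipoprotein genes outside the members, by list. Black bars are list medians, and named points are some of the genes that rose or fell. *Clu* and the *Apol* genes lie to the right and *Saa2* far to the left, and most regulators lie near 0.

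Of the genes for assembly and secretion of lipoproteins, 14 of 16 were tested, 1 rose, 2 fell and 11 did not pass (median log2 fold change -0.09). Among all tested genes 20.2% rose and 16.8% fell. *Mttp*, which loads lipid onto apoB, fell to 8.85, 6.35 and 7.41 CPM in Trim28 cKO libraries, against 16.7, 14.7 and 13.7 CPM in control libraries (log2 fold change -0.999, SE 0.18). *Lman1*, a cargo receptor, fell to 145 ± 5.35 CPM, against 255 ± 27.1 CPM in control ovaries (log2 fold change -0.82, SE 0.10). *Apobec1*, the enzyme that edits *Apob* mRNA and is also active in macrophages, rose to 111 ± 33.9 CPM, against 17.7 ± 2.41 CPM in control ovaries (log2 fold change 2.64, SE 0.25).

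Of 6 genes listed as lipidation transporters 4 were tested, of which 2 rose and 2 fell. *Abcg1*, a cholesterol exporter, rose to 65.7 ± 5.87 CPM in Trim28 cKO ovaries, against 13.8 ± 0.612 CPM in control ovaries (log2 fold change 2.25, SE 0.11). *Abca1*, which gives the first lipid to apoA-I, rose to 944 ± 171 CPM, against 503 ± 143 CPM in control ovaries (log2 fold change 0.91, SE 0.23, adjusted p = 0.0206). *Abca7* fell to 39.1 ± 2.97 CPM, against 83.2 ± 12.5 CPM in control ovaries (log2 fold change -1.09, SE 0.13), and *Abcg4* to 12.5 ± 1.36 CPM, against 20.1 ± 4.36 CPM in control ovaries (log2 fold change -0.68, SE 0.18). By edgeR the call of *Abca1* was lost without Trim28 cKO replicate 2 or 3 or control replicate 1 or 3, and adjusted p ranged from 0.000779 to 0.0767 over 13 alternative analyses. That of *Abcg4* was lost without Trim28 cKO replicate 1 or 2 or control replicate 2 (adjusted p from 0.00627 to 0.0705 over the same alternatives).

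Of 23 receptor genes 21 were tested, 10 rose, 4 fell and 7 did not pass, with a median log2 fold change of 0.70. Over all tested genes 20.2% rose and 16.8% fell. Those that rose most were scavenger and lipid receptors of macrophages. *Trem2*, which binds apoE and other lipid-carrying proteins, rose to 200, 75.0 and 120 CPM in Trim28 cKO libraries, against 11.3, 7.88 and 11.6 CPM in control libraries (log2 fold change 3.68, SE 0.38). *Marco* rose to 4.51 ± 1.53 CPM, against 0.219 ± 0.106 CPM in control ovaries (log2 fold change 4.34, SE 0.47), and *Msr1* to 34.7 ± 7.65 CPM, against 4.95 ± 0.555 CPM in control ovaries (log2 fold change 2.81, SE 0.20). *Lrp8*, a receptor of apoE and reelin, fell to 8.67 ± 2.31 CPM, against 103 ± 59.2 CPM in control ovaries (log2 fold change -3.57, SE 0.54), with control replicate 2 at 34.7 CPM.

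Of 14 genes for lipolysis and remodelling, 13 were tested, 3 rose, 1 fell and 9 did not pass (median log2 fold change 0.23). The shares of all tested genes that rose and fell were 20.2% and 16.8%. *Pltp*, which moves phospholipid between particles, rose to 185 ± 34.3 CPM in Trim28 cKO ovaries, against 46.5 ± 10.2 CPM in control ovaries (log2 fold change 1.99, SE 0.20). *Lpl*, the lipase that apoC-II activates, rose to 236 ± 18.4 CPM, against 103 ± 26.5 CPM in control ovaries (log2 fold change 1.20, SE 0.18), and the lysosomal lipase *Lipa* to 219 ± 72.6 CPM, against 91.8 ± 8.05 CPM in control ovaries (log2 fold change 1.26, SE 0.24). *Lipg*, an endothelial lipase of high-density particles, fell to 127, 107 and 124 CPM in Trim28 cKO libraries, against 1183, 464 and 684 CPM in control libraries (log2 fold change -2.70, SE 0.33).

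Of 33 regulators known from apolipoprotein genes of liver, intestine or macrophages, 30 were tested. Of these 7 rose, 3 fell and 20 did not pass (median log2 fold change 0.14). By the same rule 20.2% of all tested genes rose and 16.8% fell. *Hnf4a*, which drives the chromosome 9 cluster in liver and intestine, had 1 count over the Trim28 cKO libraries, against 21 counts over the control libraries, and was too low to be tested. *Nr0b2*, a nuclear receptor without a DNA-binding domain, rose to 10.8 ± 1.29 CPM in Trim28 cKO ovaries, against 1.96 ± 0.896 CPM in control ovaries (log2 fold change 2.49, SE 0.33). *Mlxipl*, a glucose-responsive factor, rose to 85.3 ± 17.0 CPM, against 18.4 ± 3.69 CPM in control ovaries (log2 fold change 2.21, SE 0.20). *Nr5a2*, a granulosa cell nuclear receptor that acts on *Apoa1* in liver, fell to 21.8, 120 and 115 CPM in Trim28 cKO libraries, against 393, 378 and 465 CPM in control libraries (log2 fold change -2.27, SE 0.57, adjusted p = 0.0190). It did not pass with every gene kept whatever its counts, or once control replicate 3 was left out (adjusted p from 0.000957 to 0.129 over the alternatives). Trim28 cKO replicate 1 was the lowest for *Nr5a2*, as it was for *Apoa4* and *Apoc3*. For *Apoa1* the same library was the highest of the Trim28 cKO libraries, at 5.55 CPM against 3.38 and 2.85 CPM. A link of *Nr5a2* to these genes was not tested. *Pparg* fell to 15.7 ± 2.98 CPM, against 44.6 ± 7.76 CPM in control ovaries (log2 fold change -1.51, SE 0.19), and *Ppargc1a* to 2.21 ± 0.363 CPM, against 4.02 ± 0.663 CPM in control ovaries (log2 fold change -0.86, SE 0.25), and its call was lost in 6 of 13 alternatives, among them those without Trim28 cKO replicate 1 or 3 or control replicate 2 or 3 (adjusted p from 0.00649 to 0.0921).

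The genes most like *Apoe* over the 6 libraries, by the root mean square (RMS) difference of centred log2 CPM among 12412 genes, were *Lat2*, an adaptor of immune receptors (0.0712), *Aifm3* (0.117) and the chemokine gene *Ccl9* (0.119). *Lat2* was at 38.2, 18.6 and 26.7 CPM in Trim28 cKO libraries, against 4.97, 5.27 and 4.07 CPM in control libraries, the same order of libraries as *Apoe* within each genotype. The genes most like *Apoa1* were *Npm2* (RMS 0.175), *Trim61* (RMS 0.198) and *Padi6* (RMS 0.223), of which *Npm2* and *Padi6* are genes of the oocyte. *Npm2* was at 2.98, 2.44 and 1.99 CPM in Trim28 cKO libraries, against 14.8, 21.4 and 12.5 CPM in control libraries, which again has the order of the libraries of *Apoa1*. For *Apoa4* the nearest genes were farther off, *Mug1* (RMS 0.396), *Hhip*, which binds hedgehog proteins (RMS 0.575), and *Thbs4* (RMS 0.585). These likenesses are over 6 libraries that also share the difference between genotypes. The genes were picked from 12412 for their likeness, so a shared order of libraries comes with the search and is no separate result.

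Markers of other cell types moved with the genotypes too. All 12 macrophage markers rose, and their summed level was 5689, 3039 and 5022 CPM in Trim28 cKO libraries, against 590, 551 and 497 CPM in control libraries. *Lyz2* alone gave 2911, 1191 and 2196 CPM of this in Trim28 cKO libraries, against 218, 170.5 and 193 CPM in control libraries. The part of macrophages in the levels of *Apoe* and *Apoc1* was not tested. Of 10 Sertoli cell markers 9 rose, with sums from 520 to 1091 CPM in Trim28 cKO libraries, against 47.3 to 73.7 CPM in control libraries. Their part in *Clu* and *Apoe* was not tested either. Of 8 theca and Leydig cell markers, 4 fell and 3 rose. Their sums were 5120 to 6678 CPM in Trim28 cKO libraries, against 17330 to 27500 CPM in control libraries. The part of these steroidogenic cells in *Apoe* was not tested.

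For the members that were lower, 7 of 8 oocyte markers fell, with sums from 38.5 to 48.2 CPM in Trim28 cKO libraries, against 218 to 447 CPM in control libraries. All 5 luteal cell markers fell, with sums from 603 to 802 CPM in Trim28 cKO libraries, against 4263 to 8649 CPM in control libraries. Of 12 granulosa cell markers 5 fell and 1 rose, with sums from 2563 to 2886 CPM in Trim28 cKO libraries, against 3102 to 3867 CPM in control libraries. The part of these cells in the levels of *Apoa1*, *Apoa4* and *Apoc3* was not tested. Markers of liver and intestine, the organs that make most apoA-I and apoA-IV, were mixed. The hepatocyte sums overlapped, at 28.6 to 39.8 CPM in Trim28 cKO libraries and 39.2, 7.80 and 6.04 CPM in control libraries. The overlap came from control replicate 1 alone, where most of the sum was *Cyp2e1*. Of 12 hepatocyte markers 3 were tested. *Ahsg* rose (log2 fold change 3.04, SE 0.56), *Serpinc1* fell (log2 fold change -2.60, SE 0.31) and *Cyp2e1* did not pass, with 33.0 CPM in control replicate 1. *Alb*, the most abundant hepatocyte mRNA, had 14 counts over the Trim28 cKO libraries and 3 over the control libraries. The enterocyte sums were 1.10 to 1.44 CPM in Trim28 cKO libraries, against 6.001 to 10.4 CPM in control libraries, most of it *Vil1*, which fell (log2 fold change -3.30, SE 0.34). *Lct* was the other of the 2 tested among 5 counted enterocyte markers and did not pass, and *Fabp2* had 1 count over the Trim28 cKO libraries and 2 over the control libraries. The part of liver or intestine in the members' levels was not tested.

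For *Apod*, 4 of 8 stromal fibroblast markers rose, with sums from 3421 to 4518 CPM in Trim28 cKO libraries, against 2516 to 2919 CPM in control libraries. *Dcn* alone gave 1154, 1739 and 1925 CPM of the Trim28 cKO sums, against 504, 467 and 438 CPM of the control sums. The 4 that did not pass were *Lum*, *Pdgfra*, *Col1a2* and *Tcf21* (log2 fold changes -0.82, -0.21, 0.04 and 0.15). The 6 adipocyte markers had adjusted p from 0.0725 to 0.889 by edgeR, and their sums overlapped, at 21.5, 81.2 and 194 CPM in Trim28 cKO libraries and 108, 24.7 and 14.6 CPM in control libraries. Trim28 cKO replicate 1 was the lowest Trim28 cKO library for the fibroblast sum, the adipocyte sum and *Apod*, and control replicate 1 was the highest control library for both sums but not for *Apod*. Being lowest in Trim28 cKO replicate 1 was not particular to these lists. It held as well for the sums of smooth muscle markers (387, 859 and 850 CPM in Trim28 cKO libraries), granulosa cell markers and endothelial markers. The part of these cells in *Apod* was not tested.

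**Figure D5:**
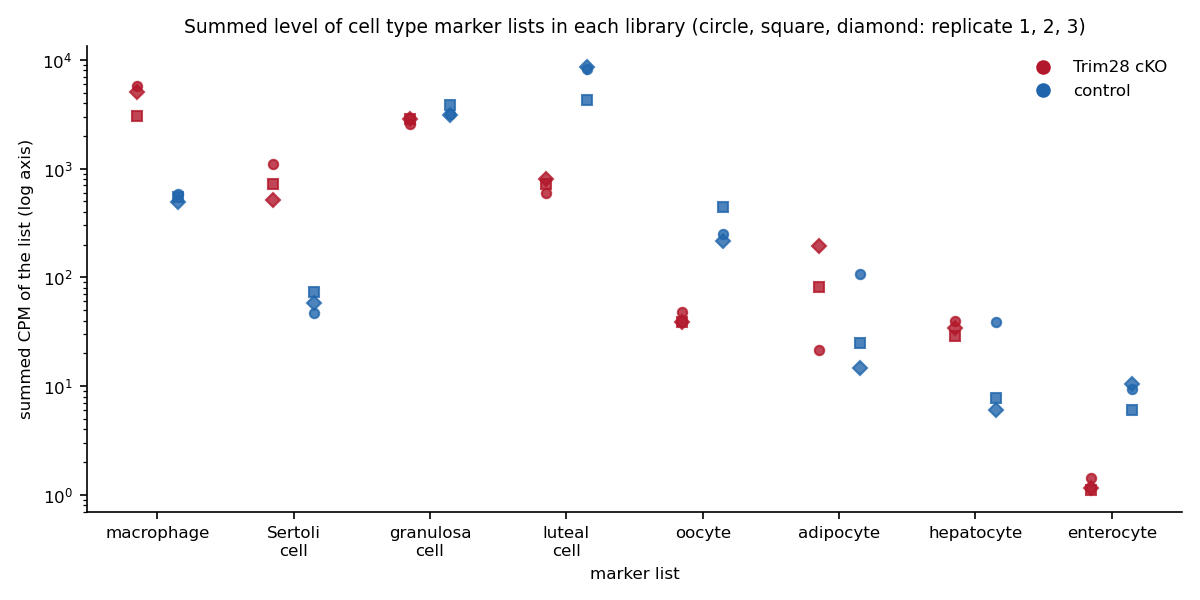
Summed CPM of 8 cell type marker lists in each library, on a log axis. The macrophage sums of Trim28 cKO libraries lie between 3039 and 5689 CPM, above those of the control libraries, the luteal, oocyte and enterocyte sums lie below them, and the adipocyte and hepatocyte sums overlap.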

How the data were processed

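RNA-seq of whole ovaries was analysed from 3 Trim28 cKO and 3 control libraries. The authors aligned the reads with STAR 2.5.3a (build mm10), and the deposited raw counts per gene came from HTSeq 0.6.1p1. The notes of the submitters on processing name bcl2fastq 2.17.1.14 and DESeq2 1.16.1 as well. The authors also deposited a normalized signal, counts divided by a size factor per library, and that signal per kb of median transcript length. Genes without counts in any library are not listed, and 2 cells of the signal per kb, of no member, differ from signal over length. The authors' fold changes and p-values were not used. Whether HTSeq counted by strand is not stated in those sources.

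Counts were filtered with filterByExpr (minimum count 10, minimum total 15), scaled by TMM and tested by edgeR 4.0.16 under R 4.3.3 (robust glmQLFit, then glmQLFTest), with Benjamini-Hochberg adjustment over all 18959 tested genes. The standard error is the log2 fold change divided by the square root of F. The test was also run on counts simulated from this fit, in which far fewer genes changed than were called here, and its outcome is not given. Libraries of a group differed by more than sampling noise. P-values set the difference between genotypes against the spread between these libraries, which was estimated partly from other genes. Tables and figures were made with Python 3.11.15, pandas 2.3.3, numpy 2.4.6 and matplotlib 3.10.9. Gene bounds are those of the table and equal the GENCODE annotation in the reference.

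The members, gene lists and marker lists were chosen with earlier results of these data known. Named by rule were all members, up to 4 other apolipoproteins that rose most and 4 that fell most, up to 3 each way in each other list, the nearest tested neighbour on each side of a locus and up to 3 neighbours that passed, and the 3 genes at 5 CPM or more most like *Apoa1*, *Apoa4* and *Apoe*, whose log2 CPM used a prior count of 2. Some genes that this rule names are not reported here. Alternatives were DESeq2 size factors in edgeR, library-size scaling, no filter, a filter of 1 CPM in 3 libraries, limma-voom (limma 3.58.1), DESeq2 1.42.0 with its Wald test, each library left out, the replicate number as a block, and a log2 fold change beyond 1.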

Additional observations from a re-analysis of the deposited data

How the results depend on the processing

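The members were chosen on this contrast, so it is no sign of stability that none of the alternatives run changed their direction or call. With a library left out, 4 to 8 other apolipoprotein genes were called higher and 1 to 2 lower, and 19 to 24 pathway genes higher and 9 to 13 lower, where the full analysis gave 7, 1, 23 and 12. Of the other apolipoproteins, 2 were called lower without a filter on low counts and 3 by the Wald test of DESeq2, and 7 pathway genes were called lower with a log2 fold change beyond 1. The cause of these differences was not tested, except that the last asks for a larger fold.

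Among other named genes, 4 that did not pass changed sign. With a library left out their log2 fold changes ranged from -0.053 to 0.17 for *Clptm1*, from -0.16 to 0.049 for *Tomm40*, from -0.12 to 0.58 for *Bdh1* and from -0.083 to 0.040 for *Ldah*, which was at 0.0023 with the stricter filter, 0.0043 by the Wald test and 0.0061 by limma-voom. A further 6 genes lost their call under 1 or more alternatives. Library-size scaling moved the median log2 fold change of all genes by -0.05 and the share of higher among called genes to 49.9%, where it was 54.6% with TMM.

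Same-numbered libraries deviated together with correlations of -0.07, 0.06 and -0.17, so the numbers were not taken to pair them. With the replicate block, 7 other apolipoproteins were called higher and 1 lower, and 21 pathway genes higher and 11 lower, and *Apoa4* had a log2 fold change of -4.58 and *Apoe* of 2.39. With 3 libraries against 3, a single value cannot reach p under 0.1 in an exact permutation test, and genes with few counts, such as *Apoa5*, *Apoa2*, *Apoc2* and *Apob*, are limited by depth.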
